A study of Mus musculus with 2 samples.

Results

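Lcn2, Saa1, Saa3, Hp and Steap4 are 5 acute phase genes that were followed across the mesenchymal stromal cells (MSC) of intestinal grafts, out of 28692 genes in the files. They were picked by symbol from values already seen in these libraries, so their levels and their co-detection are a description and carry no test. Pieces of embryonic intestine, small (SI) or large (LI), from EYFP (C57BL/6) mice had been placed under the kidney capsule of adult WT mice, and graft cells were taken 4 weeks later for droplet single-cell RNA sequencing. EYFP males, themselves from a cross of a reporter line with Cre mice that are not named, had been mated with C57BL/6Nrj females, and YFP separated donor from host cells in the sort. Sorted cells were live, YFP+ and Itgb1+ and lacked CD45, Ter119, BP3, CD31, EpCAM and L1CAM, which removes most blood, endothelial, epithelial and glial cells. There was 1 library for the LI graft and 1 for the SI graft, the LI cells came from pooled grafts, and both grafts shared the donor strain, the host and the time. A 3′ or a 5′ kit was used without a statement of which library had which, so organ, library and kit cannot be told apart.

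The acute phase response is the change in secreted proteins that follows infection or injury. It is best known from the liver, where IL-6 family cytokines act through gp130 and STAT3, and IL-1, TNF and IL-17 act through NF-κB, often together with C/EBP factors. Several acute phase genes are also transcribed outside the liver, in fibroblasts and other cells at sites of inflammation. Lcn2 encodes lipocalin 2, which binds bacterial siderophores and so withholds iron. Saa1 and Saa3 encode serum amyloid A apolipoproteins, of which Saa3 is the form made mainly outside the liver. Hp encodes haptoglobin, the plasma protein that captures free haemoglobin, and Steap4 encodes a metalloreductase of iron and copper in cell membranes.

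The regulatory DNA of the members is shown because C/EBP, NF-κB and STAT factors are textbook regulators of this group. Each line holds 190 bases, from 250 to 61 bases before the RefSeq start, 5′ to 3′ on the gene's own strand, in build GRCm38.p6. Capitals mark matches, on either strand, to the letters TTGCNNAA (C/EBP), GGGA and CC with any 4 bases between them (NF-κB), or TTCNNNGAA (STAT). The windows lie at chr2:32387800-32387989 (minus strand) for Lcn2, chr7:46743041-46743230 (minus) for Saa1, chr7:46715737-46715926 (minus) for Saa3 and chr5:7960222-7960411 (plus) for Steap4. The RefSeq promoter table used here matched 4 of the 5 members, all but Hp.
Lcn2: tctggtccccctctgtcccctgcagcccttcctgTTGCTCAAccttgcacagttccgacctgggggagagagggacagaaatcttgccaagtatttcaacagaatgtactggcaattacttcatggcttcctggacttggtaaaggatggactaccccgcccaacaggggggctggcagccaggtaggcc
Saa1: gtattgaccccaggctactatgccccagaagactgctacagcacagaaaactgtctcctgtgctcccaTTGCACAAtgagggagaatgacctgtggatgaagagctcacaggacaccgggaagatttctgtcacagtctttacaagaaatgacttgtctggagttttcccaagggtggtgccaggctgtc
Saa3: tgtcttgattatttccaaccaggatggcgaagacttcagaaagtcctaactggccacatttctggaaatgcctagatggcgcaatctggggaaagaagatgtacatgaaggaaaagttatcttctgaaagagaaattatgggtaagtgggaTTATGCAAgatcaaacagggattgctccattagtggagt
Steap4: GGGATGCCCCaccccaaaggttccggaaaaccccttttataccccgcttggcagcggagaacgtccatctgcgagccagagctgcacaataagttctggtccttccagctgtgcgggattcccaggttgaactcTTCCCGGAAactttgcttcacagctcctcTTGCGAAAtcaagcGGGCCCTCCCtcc

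All 4 windows held 1 match to the C/EBP letters, which occurred in 9.56% of the 32851 promoters of the table, over the same 250 bases before the start. Steap4 also held 2 matches to the NF-κB letters, found in 17.6% of promoters, and 1 to the STAT letters, found in 7.02%. Lcn2, Saa1 and Saa3 had no match to the NF-κB or STAT letters in these 250 bases. A match is a run of letters and not a shown binding site. The Lcn2 window overlaps an exon of an annotated Lcn2 transcript with a start further upstream, and the Steap4 window overlaps an exon of a lincRNA on the opposite strand. Saa1 and Saa3 are neighbours on chromosome 7, at 46740497 to 46742980 and 46711998 to 46715700. Hp (ENSMUSG00000031722) lies on chromosome 8, at 109575128 to 109579172 on the minus strand.

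The libraries held 11568 (LI) and 9631 (SI) barcodes and 63348069 and 54918006 UMIs, the molecules counted. Barcodes under 500 detected genes or over 10% mitochondrial UMIs were set aside, which left 9873 LI and 7910 SI cells with medians of 5288 and 5682 UMIs. The libraries shared 26 barcodes. Classes were gated on fixed markers that include no member. Fibroblasts (FB), the cells that met no gate of another lineage, made up 8086 LI (81.9%) and 5704 SI cells (72.1%) and were split by marker scores into PDGFRAhi, adventitial-like (Pi16, Scara5, Dpp4), CD81, Fgfr2 and MHC class II FB, with the remainder called other FB. Levels are CPM, a gene's scaled share of the UMIs pooled over the cells of a class, with exact 95% Poisson intervals, and shares are cells with at least 1 UMI of the gene, with Clopper-Pearson intervals. All intervals cover counting error only, and the members' UMIs sat in few cells, so the spread between samples, which 1 library per graft cannot show, would be wider.

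Lcn2, Saa3 and Hp were rare and uneven, whereas Steap4 was spread thinly over many cells. Lcn2 had 2232 UMIs in 343 of the LI cells (3.47%, 3.12 to 3.85) and 195 UMIs in 63 of the SI cells (0.796%, 0.613 to 1.02). Saa3 had the most UMIs of the members, 6169 in 273 LI cells (2.77%) and 3538 in 161 SI cells (2.04%). Hp had 4868 UMIs in 578 LI cells (5.85%) and 1013 UMIs in 219 SI cells (2.77%). Each of these 3 genes was thus found in more LI than SI cells, and a few cells carried much of it. The 10 LI cells with the most Saa3 held 41.9% of its UMIs, and the 10 such SI cells held 59.0%. For Lcn2 these shares were 25.9% and 54.4%, and the 10 SI cells with the most Hp held 44.1% of it. Steap4 differed in this respect, since its 10 richest cells held 6.91% of 1215 LI UMIs and 8.05% of 894 SI UMIs, in 767 (7.77%) and 573 (7.24%) cells. No LI cell had more than 14 Steap4 UMIs and no SI cell more than 11.

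Single cells reached very high Saa3 loads. The richest LI cell, an adventitial-like FB, devoted 595 of its 16381 UMIs (3.63%) to Saa3 and also held 154 Hp and 33 Lcn2 UMIs. The richest SI cell, one of the other FB, had 338 Saa3 of 7215 UMIs (4.68%), with 19 Hp and no Lcn2 UMI. Lcn2 peaked at 96 of 4841 UMIs in an LI cell that also held 66 Saa3 UMIs but no Hp. Cells with a member were deeper than cells without, with a median of 11069 against 5205 UMIs for Lcn2 in LI and 8260 against 5673 in SI.

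**Figure D1:**
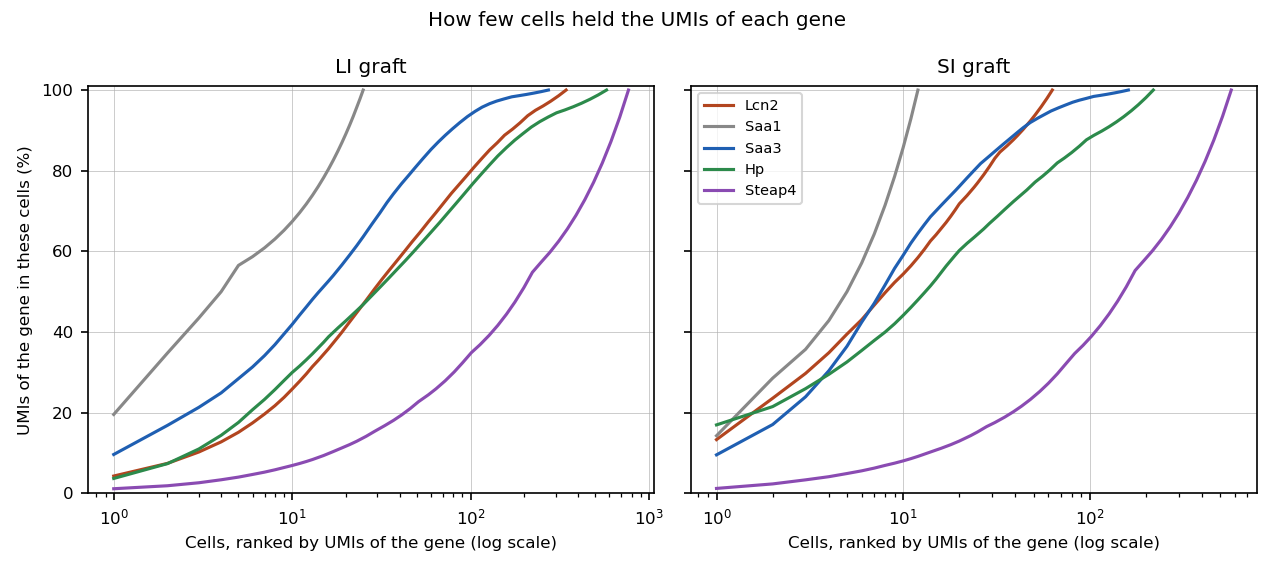
Share of the UMIs of each gene (y axis, %) held by its richest cells, ranked from the most UMIs (x axis, number of cells, log scale), in the LI and the SI graft. The Saa3, Hp and Lcn2 curves rise early, with 10 cells holding between 25.9% and 59.0% of the UMIs, while Steap4 rises late.

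Saa1 was close to absent, at 46 UMIs in 25 LI cells and 14 UMIs in 12 SI cells. Its 0.754 CPM in LI (0.552 to 1.01) and 0.271 CPM in SI (0.148 to 0.455) allow no comparison of the grafts by class. In LI, 21 of the 46 UMIs lay in 4 cells of the ICC gate, all in cluster 15, and 10 lay in 8 PDGFRAhi FB, at 2.97 CPM (1.42 to 5.45) against 0.191 CPM in the other fibroblasts. Saa1 shares part of its sequence with its relative Saa2, and UMIs from that part cannot be told apart. Of the 560 50-base stretches of the longest coding Saa1 transcript, 51 (9.11%) also occur in Saa2 and 0 in Saa3, and Saa2 itself had 7 LI UMIs and 0 SI UMIs.

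The classes that carried Lcn2, Saa3, Hp and Steap4 differed between the grafts. Among the 10 classes with at least 50 cells in both libraries, adventitial-like FB had the highest level of these 4 genes in LI and MHC class II FB the highest in SI, although in SI only Saa3 stood clear of the next class. The SI intervals of MHC class II FB overlapped those of immune cells for Lcn2 and Hp and those of Myh11- pericytes for Steap4. The gate for interstitial cells of Cajal (ICC), 348 LI and 45 SI cells, is not among these classes. It had more Lcn2 in LI, at 292 CPM (267 to 318), and more Saa3 in SI, at 1063 CPM from 1 cell. Mesothelial cells, 40 in LI and 26 in SI, were left out too and had more Steap4 in both grafts. In all, 0 of the 5 members had the same highest class in both libraries, against 38.6% of 9795 genes. Saa1 never reached the 10 CPM that those genes had to reach, so the background fits only the other 4. This count depended on how classes were drawn, since 4 of the 5 had the same highest class when clusters replaced the gates, with unnamed clusters, LI cluster 12 among them, pooled as other FB, and 3 did without LI cluster 12. Cells cut from a score form a range. For the adventitial-like gate, 100 of the 554 LI cells lay within 0.1 of the score limit, at 11.2 CPM of Saa3 and 68.7 of Hp, while the 454 cells further inside had 716 and 683 CPM and the 140 cells just outside had 48.4 and 155. In LI cells of the class the median score was 0.96 for its own markers, 0.25 for CD81 FB and -0.31 for MHC class II FB. The gate asks for a lead of the own score, so this order follows from the gate.

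Adventitial-like FB, cells of the outer vessel sheath and submucosa known for Pi16 and Dpp4, numbered 554 in LI and 459 in SI. Their Saa3 level was 615 CPM in LI (593 to 637) and 10.4 CPM in SI (7.36 to 14.2). Hp was at 595 CPM in LI (574 to 617) and 11.2 CPM in SI (8.04 to 15.1), in 23.1% and 3.27% of the cells. Lcn2 was at 125 CPM in LI (115 to 135) and 1.59 CPM in SI (0.585 to 3.47), and Steap4 at 49.1 and 12.7 CPM. The LI over SI log2 ratios, with 1 CPM added to each level, were 5.76 for Saa3, 5.62 for Hp, 5.60 for Lcn2 and 1.87 for Steap4, so all 4 passed 2-fold, as did 3.64% of the 8417 genes tested in this class, while 2.28% passed in the other direction. Thinned to 2000 UMIs a cell, Hp was detected in 17.7% of 509 LI and 0.913% of 438 SI cells, and Saa3 in 7.47% and 1.14%. The 7 class markers summed to 2450 CPM in LI and 2543 CPM in SI. Cells were gated on these markers, so the gate sets this likeness in part.

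The high LI values did not run through the whole adventitial-like class. Clusters were computed within each library without the members, so their numbers do not match between libraries. LI cluster 12, led by Cthrc1, Sfrp4, Prg4 and Ptx3, held 156 of the 554 cells but 99.8% of the Saa3, 97.1% of the Lcn2 and 91.5% of the Hp UMIs of the class. In those 156 cells Saa3 reached 1340 CPM, Hp 1188 CPM and Lcn2 264 CPM, at a median of 14991.5 UMIs a cell. The 209 adventitial-like cells of LI cluster 1, led by Myoc and Lpl, had 3.22 CPM of Saa3, 103 CPM of Hp and no Lcn2 UMI, at a median of 6025. The SI adventitial-like cells lay mostly in SI cluster 1 (253 cells, 6.78 CPM of Saa3) and SI cluster 6 (140 cells, 1.59 CPM). Most LI cells of the class, 479, had Xist and no Y-linked UMI and held 673 CPM of Saa3 and 653 of Hp, against 0 and 128 CPM in the 34 cells with Y-linked UMIs and no Xist. The part of depth and of donor sex in these values was not tested.

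MHC class II FB, which carry the antigen presentation genes H2-Aa, H2-Ab1 and Cd74, numbered 717 in LI and 577 in SI. They were the class in which Saa3 was high in both grafts, at 186 CPM in LI (175 to 196) and 320 CPM in SI (304 to 336), in 9.48% and 11.3% of the cells. Hp stood at 91.0 and 68.9 CPM, Lcn2 at 76.4 and 15.7 CPM, and Steap4 at 19.9 and 43.4 CPM. Steap4 was found in 21.7% of these SI cells and 12.6% of the LI cells. SI cluster 10, which held 139 of the 577 SI cells, had the mesothelial marker Upk3b and no MHC class II marker among its 10 leading genes, so clusters are the safer unit for a comparison of grafts. LI cluster 9 was led by Ctla2a, Fgfbp1 and Tac2, with Cxcl9 and MHC class II genes also among its 10 leading genes. It had 193 CPM of Saa3, 105 of Hp and 47.9 of Lcn2 in 625 cells. SI cluster 11, led by MHC class II genes and by Saa3 itself, had 458 CPM of Saa3 but 23.0 of Hp and 0.947 of Lcn2 in 394 cells. Of the LI Lcn2 in gated MHC class II FB, 47.9% lay in 29 cells of LI cluster 15. Hp and Lcn2 were thus lower beside Saa3 in SI cluster 11 than in LI cluster 9. The 139 gated cells of SI cluster 10 went the other way, at 108 CPM of Hp, 32.9 of Lcn2 and 18.6 of Saa3. So did the 49 gated cells of SI cluster 3, at 275, 58.6 and 143 CPM, whereas those of SI clusters 5 and 6 held no Hp or Lcn2 UMI.

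The remaining fibroblasts lay below adventitial-like FB in LI for Lcn2, Saa3, Hp and Steap4, but not in SI. There, other FB exceeded that class for each of these genes, CD81 FB for Saa3, Hp and Steap4, and Fgfr2 FB for Saa3. The intervals overlapped for Steap4 in other FB and for all genes named for CD81 FB. CD81 FB, the PDGFRA-low fibroblasts that include the Grem1-expressing cells, had 20.6 CPM of Lcn2 in LI and 1.20 in SI, 52.5 and 14.7 CPM of Saa3 and 40.6 and 12.6 CPM of Hp. In Fgfr2 FB, fibroblasts of the lamina propria, Hp was at 18.3 CPM in LI and 1.89 in SI, while Saa3 was at 25.8 and 40.8 CPM. Other FB had Saa3 at 31.1 CPM in LI and 67.2 in SI, the reverse order of the adventitial-like class, although the share of cells with Saa3 was 1.47% in both. Of the 1242 SI UMIs, 783 lay in 10 cells of SI cluster 7, 338 of them in 1 cell. In SI the other FB also had 24.7 CPM of Hp and 4.98 of Lcn2. PDGFRAhi FB, the subepithelial cells, had the lowest Saa3 and Hp of the 6 fibroblast classes in both libraries. Lcn2 had no UMI in any of 649 LI or 435 SI cells, and a count of 0 (taken as up to 3 counts) allows shares of cells with a Lcn2 UMI of up to 0.462% and 0.690%, at median depths of 4853 and 5824 UMIs. Hp was found in 1.08% and 0.690% of PDGFRAhi FB, never with more than 1 UMI a cell. Free RNA was not measured, and no expression is read from Hp shares at or below these.

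**Figure D2:**
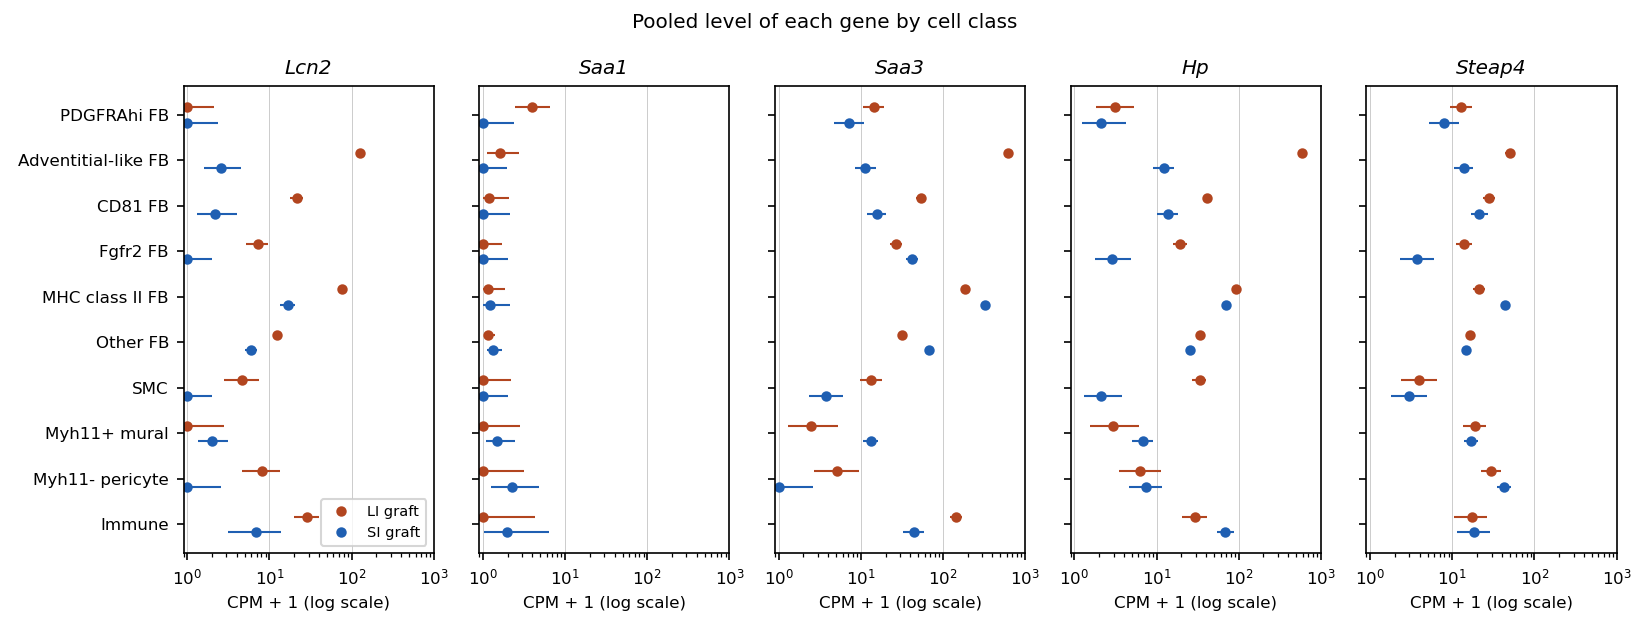
Pooled level of each gene (x axis, CPM + 1, log scale) in the 10 classes with at least 50 cells in both libraries (y axis), for the LI and the SI graft, with bars for exact 95% Poisson intervals. LI adventitial-like FB stand at 615 CPM of Saa3 and 595 of Hp against 10.4 and 11.2 in SI, and MHC class II FB hold the highest SI points for Lcn2, Saa3, Hp and Steap4.

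Among contractile and vascular cells, Steap4 was found in more mural cells and pericytes than SMC in both grafts. Myh11- pericytes, the capillary wall cells, had 28.6 CPM of Steap4 in LI (21.1 to 37.9) and 41.9 CPM in SI (34.0 to 51.1), in 8.93% and 11.8% of 336 and 483 cells. Their Lcn2 was at 7.15 CPM in LI and at 0 of 483 cells in SI, and Saa3 was at 4.17 CPM and at 0. Myh11+ mural cells had 17.7 and 15.8 CPM of Steap4. In smooth muscle cells (SMC) Steap4 was lowest, at 2.95 and 1.93 CPM and in 1.23% and 1.36% of cells. LI SMC had 32.4 CPM of Hp (26.3 to 39.4), 99 UMIs in 17 of 487 cells and up to 30 in 1 cell, and 26 of these SMC lay in cluster 9 and 10 in cluster 12, which are rich in Hp. In SI SMC, 2 of 516 cells had Hp, a share too low to be read as expression. Mesothelial cells, the serosal lining, had the highest Steap4 of any gated class, at 105 CPM in LI and 155 CPM in SI, in 16 of 40 and 15 of 26 cells, numbers that leave wide intervals (72.8 to 147 and 115 to 204). Cells of the kidney tubule gate, 6 in LI and 15 in SI, held no UMI of any member.

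Much of the LI Lcn2 lay outside the adventitial-like class. LI cluster 15, 152 cells led by Lcn2, Hand1, Fst and Chil1, held 41.9% of all LI Lcn2 UMIs, at 1012 CPM (948 to 1079) and in 43.4% of its cells. It also held 25 of the 46 Saa1 UMIs of the library (54.3%), at 27.0 CPM, and 493 CPM of Saa3, in 15 cells. Hp was in 4 cells, with 55 UMIs, 47 of them in 1 cell. The ICC gate, built on interstitial cell of Cajal markers such as Kit and Ano1, took 57 of these 152 cells, and these 57 held 99.8% of the Lcn2 UMIs of the 348 gated LI ICC. The 254 gated ICC of LI cluster 13, led by Kit, Prkcq and Ano1, had no Lcn2 UMI. The 9 ICC markers summed to 1591 CPM in cluster 15 and 6352 CPM in cluster 13, so cluster 15 is called by its number. Only 45 SI cells passed the ICC gate, with 0 Lcn2 UMIs, and 1 of them held 243 Saa3 UMIs.

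In SI, Lcn2 and Steap4 were highest in the same 2 clusters, Saa3 in another 2, and Hp was spread over both sets. Lcn2 lay in SI cluster 3 (27.3 CPM, 45.6% of its UMIs), led by Jam2 and Fibin, and in SI cluster 10 (14.9 CPM, 38.5%). These 2 clusters also had Steap4 at 50.2 and 45.0 CPM and Hp at 75.6 and 51.5 CPM. Saa3 stood there at 27.3 and 62.2 CPM, under its level of 68.5 CPM over all SI cells. The highest Saa3 lay in SI cluster 11 (41.0% of its UMIs) and in SI cluster 7 (29.1%), led by Wif1, Col7a1 and Inhba, where 12 of 496 cells gave 356 CPM. Cluster 7 also had the highest SI Hp, at 92.0 CPM in 10 cells (26.3% of its UMIs), with 172 of its 266 Hp UMIs in 1 cell that held 107 of Saa3. In LI, by contrast, cluster 12 alone held 62.7% of the Saa3, 67.1% of the Hp and 36.0% of the Lcn2 UMIs. Mesothelial markers, 12 in all, summed to 250 CPM in SI cluster 10 and 35.5 CPM in SI cluster 3, and their part in the Steap4 level was not tested.

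**Figure D3:**
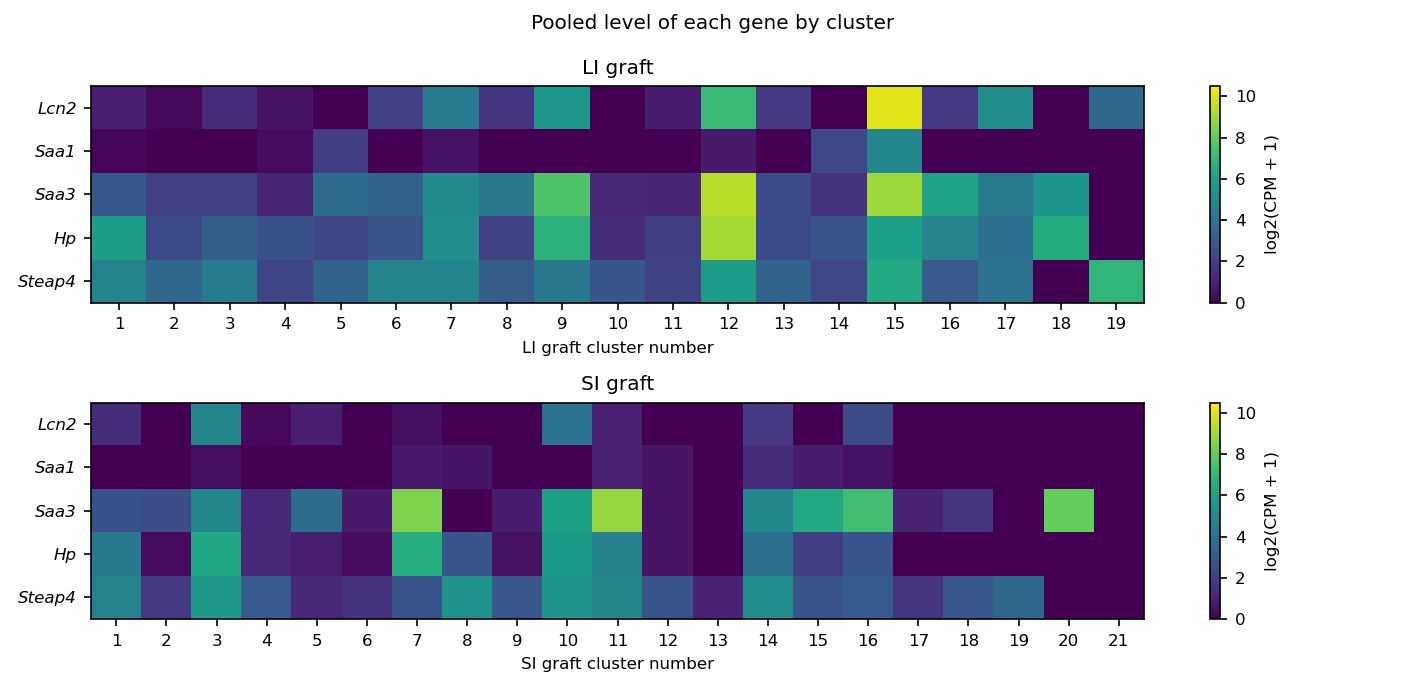
Pooled level of each gene (colour, log2 of CPM + 1) in each cluster (x axis) of the LI graft (top) and the SI graft (bottom), with clusters numbered by size within each library. LI clusters 12 and 15 are bright for Saa3 (666 and 493 CPM), with Hp in cluster 12 (561 CPM) and Lcn2 highest in cluster 15 (1012 CPM), whereas in SI Saa3 is bright in clusters 7 and 11 and Lcn2 is faint.

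Over all fibroblasts, all 5 members had the higher level in LI, although the interval of Saa1 takes in no difference (log2 0.21, -0.08 to 0.43). Lcn2 was at 30.5 CPM in LI and 4.85 CPM in SI, a log2 ratio of 2.43 (2.24 to 2.62). Hp was at 92.9 and 24.0 CPM, a log2 ratio of 1.91 (1.81 to 2.01). These 2 of the 4 members with at least 10 CPM passed 2-fold, as did 1.93% of the 8614 genes tested, whose median log2 ratio was -0.01. Saa3 at 109 and 83.0 CPM (log2 0.39, 0.32 to 0.45) and Steap4 at 20.1 and 16.5 CPM (log2 0.27, 0.13 to 0.41) stayed under 2-fold, and Saa1 at 0.376 and 0.190 CPM was too low to be tested. Without LI cluster 12 the log2 ratio of Lcn2 was 1.60. LI cluster 15, which held more Lcn2 over all LI cells but less within fibroblasts, was not left out in turn. The ratio of Hp was 0.46 without cluster 12, Saa3 turned to -1.08 and Steap4 to -0.06. Thinned to 2000 UMIs a cell, Lcn2 was found in 1.54% of LI and 0.435% of SI fibroblasts and Hp in 3.74% and 1.66%, while Saa3 (1.81% and 1.61%) and Steap4 (3.07% and 3.06%) lay close together. The setting without LI cluster 12 was chosen after the data were seen.

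The members were found in the same single cells more often than their separate shares predict. The expected number is the product of both shares, and a ratio of 1 means independence. In LI, Saa3 and Hp shared 119 cells against 16.0 expected (7.45-fold), and in SI 27 against 4.46 (6.06-fold). Lcn2 and Hp shared 114 LI cells (5.68-fold) and 22 SI cells (12.6-fold), and Lcn2 and Saa3 shared 84 (8.86-fold) and 13 (10.1-fold). Steap4 took part as well, with ratios of 3.88 and 4.35 for Hp, 4.10 and 3.69 for Saa3 and 4.69 and 6.14 for Lcn2. In all, 7 of 10 pairs had a ratio of at least 1.5 in both libraries, against 10.3% of all pairs of genes found in 0.5 to 10% of cells. The members were picked from these same libraries, so this count describes the pick and is no independent finding. Saa1 lies below that range, so the background fits only the 6 pairs without it, all of which passed. Saa1 shared 9 LI cells with Lcn2 and 9 with Saa3, but only 2 SI cells with Saa3 and 0 with the other 3.

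Depth raises the detection of all genes together, so cells were also thinned to 2000 UMIs, which left out 727 LI and 537 SI cells. The same 7 pairs stayed at or above 1.5 in both libraries, against 6.73% of all pairs, with Saa3 and Hp in 59 LI cells against 5.13 expected and in 13 SI cells against 1.30. The SI ratios rest on few cells, such as 3 for Lcn2 and Saa3 and 1 for Saa1 and Saa3. In adventitial-like FB of LI, where both genes were common, 46 of the 55 Saa3 cells also had Hp (83.6%), and 53 of the 67 Lcn2 cells did (79.1%). With or without Hp, 51 of the 55 Saa3 cells and 60 of the 67 Lcn2 cells lay in cluster 12. There Hp was found in 56.4% of the 156 cells, against 23.1% of the class.

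**Figure D4:**
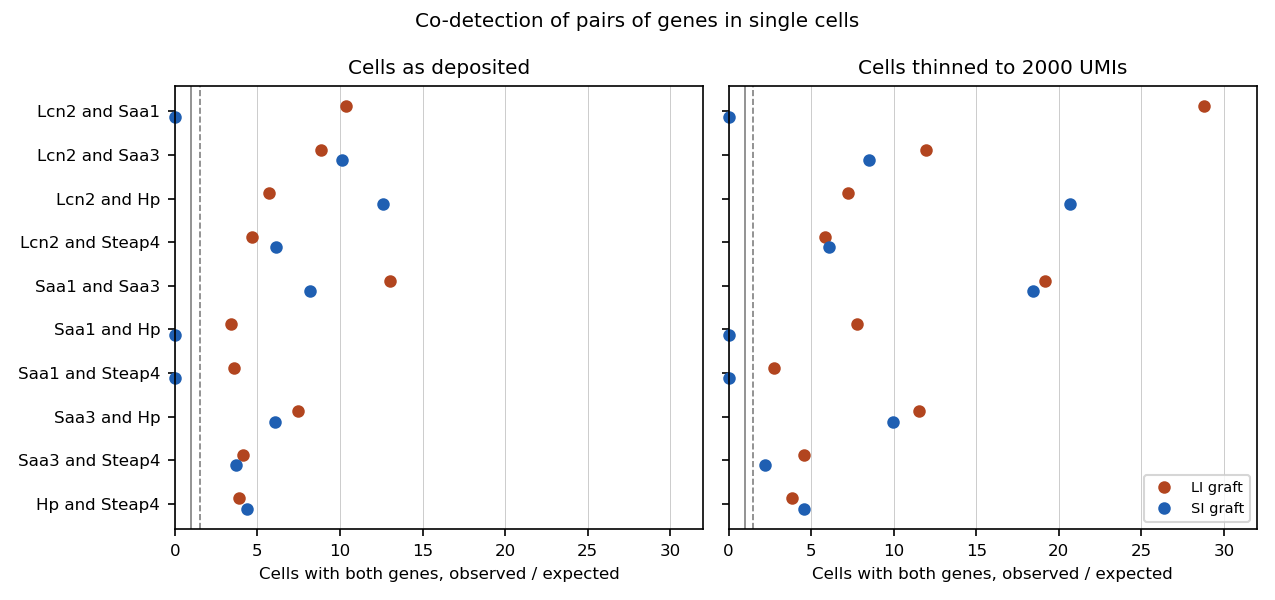
Cells with both genes of a pair, observed over expected (x axis), for the 10 pairs of members (y axis) in the LI and SI graft, as deposited (left) and thinned to 2000 UMIs (right), with lines at 1 (solid) and 1.5 (dashed). Saa3 and Hp stand at 7.45 and 6.06, and the 3 SI points at 0 are pairs of Saa1, which had 12 SI cells.

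Fibroblasts with UMIs of at least 2 of Lcn2, Saa3 and Hp numbered 174 in LI (2.15%) and 42 in SI (0.736%). In LI, 66 were adventitial-like and 50 MHC class II FB, and of all LI cells with at least 2 of these genes 109 lay in cluster 12 and 55 in cluster 9. In SI, 20 were MHC class II FB, 20 other FB and 1 adventitial-like, and of all such SI cells 17 lay in cluster 10 and 11 in cluster 3. They were deeper than fibroblasts with none of the 3 genes, at medians of 14376.5 against 5192 UMIs in LI and 9079 against 5751 in SI. Steap4 was not used to choose these cells, but it was picked as a member from the same libraries, so its level is no independent check. It was at 87.1 against 13.1 CPM in LI (log2 2.65, 2.42 to 2.87) and at 114 against 13.0 CPM in SI (log2 3.04, 2.60 to 3.46). Only 1.27% of 8335 genes were at least 2-fold higher in both libraries in this comparison, and 3.46% were at least 2-fold lower in both. The cells with none of the 3 genes come from other classes in part, and the part of class make-up in these ratios was not tested.

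Of the other acute phase and allied plasma protein genes, 10 of 28 were high enough to compare in these cells, and 4 were at least 2-fold higher in both grafts, namely Ptx3, Lbp, A2m and Cp. The median log2 ratio of the 10 genes was 1.87 in LI and 1.51 in SI, against -0.22 and -0.04 for all genes. Ptx3, the long pentraxin of innate immunity, differed the most of these 4, at 1373 against 24.1 CPM in LI and 279 against 6.35 CPM in SI. Lbp, the lipopolysaccharide-binding protein, stood at 962 against 124 CPM in LI and 286 against 66.5 in SI. The metallothionein gene Mt1 stood at 3362 against 807 CPM in LI and at 912 against 863 CPM in SI. The complement genes Serping1 (log2 1.22 and 0.85) and C4b (1.01 and 0.57) and the protease inhibitor gene Serpina3n (1.22 and 0.97) passed 2-fold in LI alone. Serpina3g, of the same family, passed in SI alone, at 416 against 88.7 CPM, with 73.3 against 77.8 CPM in LI.

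Of the upstream genes, 11 receptor, 2 cytokine and 12 transcription factor and feedback genes could be compared, beside the same 1.27% of all genes. Of the 11 receptor genes, only Il1r1, the IL-1 receptor, passed 2-fold in both grafts, at 257 against 88.1 CPM in LI and 176 against 78.8 in SI. The gp130 gene Il6st was at log2 ratios of 0.28 and -0.20, Tnfrsf1a at 0.26 and 0.11 and Il11ra1 at 1.36 and 0.49. Il17ra passed in LI alone as well, at 1.71 and 0.37. Of the 2 cytokine genes, neither passed in both, with Il33 at 2.56 in LI and 0.65 in SI and Il6 at 1.90 and -0.18. None of the 12 transcription factor and feedback genes passed in both, and 4 were at least 2-fold higher in LI alone, namely Nfkb1, Nfkb2, Nfkbia and Tnfaip3. Socs3, the STAT3-induced feedback gene, was lower with the members, at 507 against 1319 CPM in LI and 679 against 1327 in SI, and Nfkbia, the NF-κB-induced inhibitor, was at log2 1.83 in LI and 0.18 in SI. Cebpb was at 0.55 and 0.47. Of 7 other STEAP and iron genes, Steap1 passed in both, at 3.12 and 2.35, and the iron exporter gene Slc40a1 was at -3.75 in LI and -0.41 in SI. The 3 binding partner genes compared, among them Hmox1, which degrades haem, gave no call in both. Pathway genes outside the 4 of highest level in each list (Ptx3, Lbp, A2m, Cp, Mt2, Serpina3g, Lif, Il17ra, Nfkb1, Nfkb2, Tnfaip3 and Steap1) were singled out after their values were seen.

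**Figure D5:**
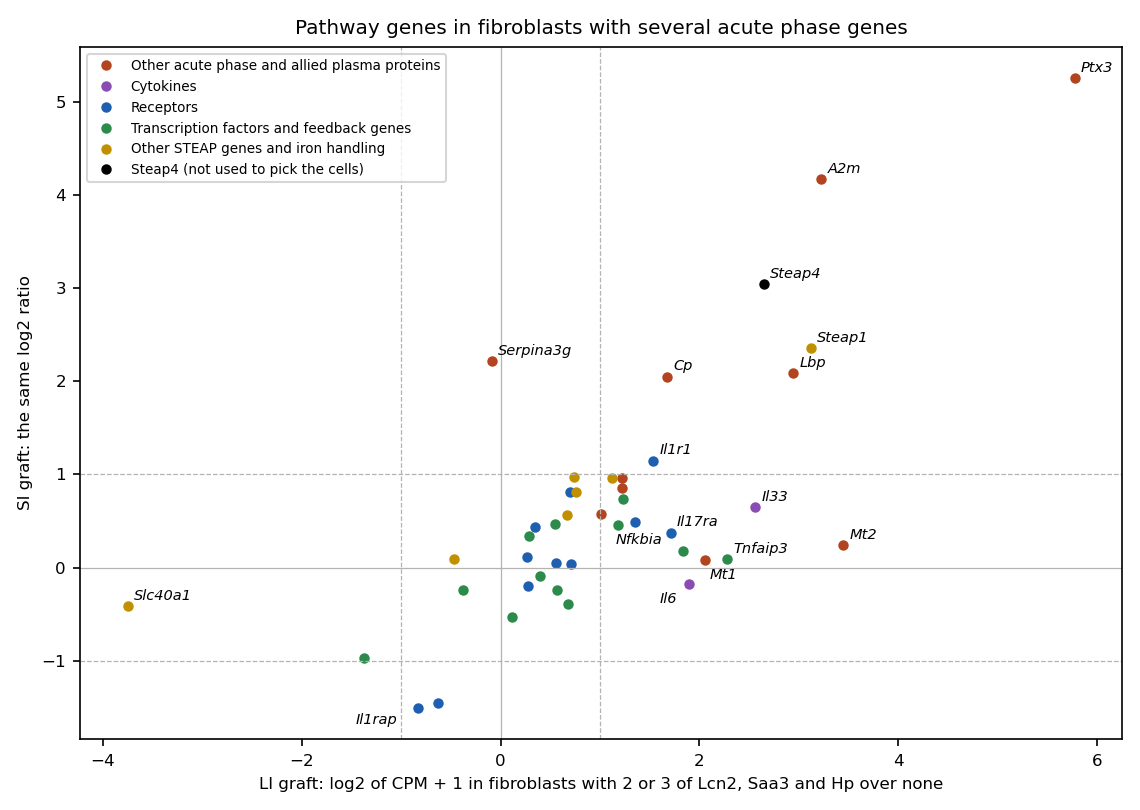
Log2 ratio of CPM + 1 in fibroblasts with 2 or 3 of Lcn2, Saa3 and Hp over fibroblasts with none, in the LI graft (x axis) and the SI graft (y axis), for genes of 5 pathway lists and Steap4, with dashed lines at 2-fold. Ptx3, A2m, Lbp, Cp, Steap1, Il1r1 and Steap4 lie past 2-fold in both, whereas Mt1, Mt2, Il33, Il6, Nfkbia and Tnfaip3 are among those past it in LI only.

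Over all fibroblasts, the grafts differed in acute phase and cytokine genes of the same pathway. No receptor, transcription factor or iron gene of at least 10 CPM passed 2-fold. Steap1, under that limit, was at 8.93 CPM in LI and 2.20 in SI. Of 9 acute phase genes tested, 4 were at least 2-fold higher in LI and 1, C4b, in SI (169 against 344 CPM), beside 1.93% and 1.61% of all genes. The 4 were Ptx3, at a log2 ratio of 3.09, Serpina3n, at 207 against 93.1 CPM, Lbp and Mt2. Of 5 cytokine genes, Il11 was higher in LI, at a log2 ratio of 3.49, as was Lif, and Il1b was higher in SI at 11.6 against 5.17 CPM. Il6 was at 84.1 and 94.8 CPM and Il33 at 324 and 176 CPM. None of 11 receptor, 12 transcription factor and feedback, 3 binding partner or 6 STEAP and iron genes passed 2-fold, with Socs3 at 1226 and 1294 CPM, Il6st at 123 and 128 CPM and Fth1 at 3636 and 3245 CPM.

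The genes with the highest co-detection ratio with a member, observed over expected, included other members. The ranking is by the lower ratio of both libraries and not by the number of shared cells. With Lcn2, the 5 highest were Saa3, Steap1, Plscr2, Hp and Cyb561, with ratios between 5.37 and 12.6. With Saa3 they were Gm16685, Serpina3i, Hp, Chl1 and the chemokine Cxcl5, and with Hp they were Saa3, Ptx3, Ace, Mcoln2 and Gpr39. With Steap4 they were Hp, Saa3, Ace, Aox3 and Steap1, at ratios of 3.57 to 4.88. A ratio of at least 1.5 in both libraries was common, however, at 17.3% of genes for Lcn2, 10% for Saa3, 10.2% for Hp and 4.16% for Steap4.

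Levels across classes gave a related picture. Over 20 points, 10 classes in each of the 2 libraries, which share their library, depth and much of their RNA, log2 levels of Lcn2 and Hp had a Pearson r of 0.90, Lcn2 and Saa3 of 0.82, Saa3 and Hp of 0.79, and Steap4 with these 3 between 0.29 and 0.53. The gene most like Lcn2 among 9795 was Slc39a14, a zinc and iron importer (r = 0.94), followed by Ccl7, Hp, Timp1 and Rps26. Hp was most like Lcn2, Nod1, Plscr2, Lbp and C1qtnf3. Saa3 was most like Dram1 (r = 0.89), Gnptab, Dtnbp1, Npc2 and Bgn, and Steap4 most like Irak3 (r = 0.80), Med7, Layn, Il17ra and Phlda1.

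Neutrophils store lipocalin 2 and haptoglobin in their granules, so their markers were read as well. Of 8 neutrophil markers, S100a8 and S100a9, the most abundant neutrophil messages, had at most 4 UMIs in either library, Ngp had 0, and Mpo, the highest, stood at 1.64 CPM in LI and 1.41 in SI. Gated immune cells, 143 in LI and 125 in SI, held 27.8 and 5.81 CPM of Lcn2, 144 and 43.6 CPM of Saa3 and 28.7 and 67.8 CPM of Hp. Fibroblasts held 69.1% of Lcn2, 89.1% of Saa3 and 96.3% of Hp UMIs in LI, where they were 81.9% of cells, and 91.8%, 86.5% and 87.6% in SI, where they were 72.1%.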

How the data were processed

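Single-cell RNA of 2 graft libraries was measured, LI and SI, 1 library each. The authors deposited UMI counts per gene and barcode, made with Cell Ranger 3.1.0 on mm10. Values are whole, unnormalised counts. Barcodes under 500 detected genes or over 10% mitochondrial UMIs were set aside. Members were matched by symbol. The members and gene lists were chosen with earlier results of these data known, and gate limits were set after marker counts and cluster overlaps, but not the members' levels by class, had been seen. Clusters (scanpy 1.11.5, 2000 variable genes, 30 components, 20 neighbours, resolution 1) were made per library without members, pathway or mitochondrial genes. Levels are pooled CPM. Ratios use log2 of CPM + 1, with genes of at least 10 CPM in either group, and intervals are exact Poisson, Clopper-Pearson or binomial (scipy 1.17.1). With 1 library per graft no test was made, and 2-fold is a rule of size. Named genes are the members, the 5 partners of highest co-detection, the 5 most similar profiles and up to 4 genes of highest CPM in each pathway list. Exceptions are named. Of 13 transcription factor and feedback genes 12 were analysed here. Doublet calling marked 0 of 11568 LI and 1 of 9631 SI barcodes and so did not work. An alternative removed the highest doublet scores. Scripts were tested on simulated data.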

Additional observations from a re-analysis of the deposited data

Results flagged for a closer look

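The level of Saa3 in adventitial-like FB over all other fibroblasts went in opposite directions in the grafts, with a log2 ratio of 3.49 in LI (3.42 to 3.57) and -3.02 in SI (-3.47 to -2.60). Hp did the same, at 3.93 in LI (3.84 to 4.01) and -1.13 in SI (-1.56 to -0.71). Both are listed because the 2 libraries moved opposite ways, and the difference was not tested, since there was 1 library per graft. In LI, 156 of the 554 cells of the class, those in cluster 12, held 99.8% of its Saa3 and 91.5% of its Hp UMIs.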

How the results depend on the processing

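No paired analysis was possible because each graft had 1 library and no result came from a test. All 5 members were higher in LI fibroblasts, but 3 were after thinning to 2000 UMIs, 3 after thinning to 1000 UMIs and 3 without LI cluster 12, an alternative chosen after seeing the data. The count of members with the same highest class in both libraries, 0, became 4 with clusters in place of gates, 3 without LI cluster 12, and 1 with the highest mean marker score, with the mean of the cells' own CPM, after thinning to 2000 UMIs and without the 1% of cells with the highest count. The last of these also took the pairs found together from 7 to 3, by construction, since it removes all 63 SI cells with Lcn2 and all 12 with Saa1. For the other changes the cause was not tested. The LI over SI log2 ratio in fibroblasts stayed at 2-fold or more in the 13 alternatives for Lcn2 that left it a UMI in SI (1.59 to 3.04) and in 13 of 14 for Hp (0.46 to 2.19). Saa3 ran from -1.08 to 1.04 and was above 0 in 10 of 14, and Steap4 from -0.06 to 0.59, above 0 in 11 of 14. At 0.754 and 0.271 CPM, Saa1 was too shallow to compare the grafts by class.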

Other observations

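Cycling fibroblasts, 93 in LI and 100 in SI, held 117 and 289 CPM of Saa3, in 4 and 7 cells, against 109 and 75.8 CPM in the others. Their Hp was at 210 CPM in LI, in 4 cells (4.30%), against 90.5 CPM and 6.56% of the others, and at 10.4 against 24.5 CPM in SI. In SI, 266 Saa3 UMIs came from 1 cell of the cycling cluster. Fibroblasts with Y-linked UMIs and no Xist (751 in LI, 1326 in SI) were set beside those with Xist and no Y-linked UMI (6528 and 3283). Lcn2 stood at 56.6 against 21.0 CPM in LI and 4.36 against 4.30 CPM in SI. Saa3 stood at 141 against 99.6 CPM and 127 against 63.3 CPM, and Steap4 at 23.7 against 18.9 CPM and 22.2 against 12.2 CPM. Hp went the other way, at 81.4 against 96.4 CPM in LI and 24.2 against 27.3 CPM in SI. These cells differ in class, since 333 of the 751 LI cells with Y-linked UMIs were MHC class II FB against 173 of the 6528 with Xist. Within MHC class II FB Hp stood at 104 against 30.6 CPM in LI, but at 71.5 against 112 CPM in SI. In LI adventitial-like FB Lcn2 was the other way round from all LI fibroblasts, at 10.9 against 137 CPM. Of the cells with Lcn2, 12.8% in LI and 11.1% in SI were among the highest doublet scores, against 10.0% and 8.23% of all cells.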
